A study of Mus musculus with 4 samples.

Results

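Autophagy, lysosome and V-ATPase genes were followed in ribosome profiles of mouse spermatocytes entering meiosis. The group was defined by gene symbol alone: the Atp6v subunits of the vacuolar proton pump, the cathepsins, the numbered Atg genes, *Lamp1* and *Lamp2*, and *Sqstm1*, *Becn1*, *Gabarap*, *Gabarapl1*, *Gabarapl2*, *Map1lc3a* and *Map1lc3b*. These symbols matched 49 of the 11598 genes with values. Of the 49 genes, 47 averaged 1 FPKM or more and were tested, and *Atg9b* and *Ctso* did not reach it.

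The study compared leptotene and zygotene spermatocytes from testes of control and *Eef1g*-cKO mice at 12 days post partum (dpp), with 2 libraries in each group. The labels give the control genotype as wild type, and the methods describe sorting from littermate control and *Eef1g*-cKO testes of a C57BL/6J background. In *Eef1g*-cKO mice, *Stra8*-GFPCre removed floxed exons of *Eef1g*, the gene of the translation elongation factor eEF1G, in male germ cells, starting in spermatogonia, so Sertoli and other somatic cells were not targeted. Whether the control animals carried floxed alleles or Cre, and how many animals went into a library, is not given in the sources used here, and the p-values measure only the spread between these libraries. Ribosome-protected fragments (RPFs) are the stretches of mRNA that a ribosome shields from nuclease. Their abundance is given as FPKM, as computed by the authors. This divides fragments by the gene's length in kilobases and by the library's size in units of 1e6 fragments. RPF abundance depends on the mRNA level as well as on the ribosomes on each mRNA, and these were not separated here. The paper reports meiotic transcripts with higher RPF abundance but reduced protein levels. In its RNA-seq, the upregulated genes were also associated with meiosis. It found no selective change for meiotic genes in translational efficiency, the ratio of RPF to mRNA abundance.

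Autophagy wraps cytoplasm in a double membrane and delivers it to the lysosome, where hydrolases digest it. The V-ATPase acidifies the lysosome: its V1 sector in the cytosol splits ATP, and its V0 sector in the membrane carries protons. Small ubiquitin-like proteins of the ATG8 family (the LC3 and GABARAP proteins) are attached to lipid on the growing membrane and bind cargo receptors such as SQSTM1. Cathepsins are the lysosome's proteases, and LAMP1 and LAMP2 are the main proteins of its membrane. In the testis, autophagy and lysosomes act both in germ cells and in Sertoli cells, which engulf the remains of dying germ cells.

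The libraries differed in depth and in marker genes. Counted reads came to 2479504 and 1384282 for control replicates 1 and 2 and to 223906 and 407979 for *Eef1g*-cKO replicates 1 and 2, on average 6.11-fold fewer in the latter group. A single read on a gene of 1 kb was worth 0.403 and 0.722 FPKM in the controls and 4.47 and 2.45 FPKM in *Eef1g*-cKO. *Eef1g* itself had 107 and 58 reads in the controls and 0 and 4 in *Eef1g*-cKO (log2 fold change −3.39, SE 0.91, limma adjusted p = 0.0731). All 12 markers of leptotene and zygotene spermatocytes had values, and their summed FPKM was 3617 and 3714 in the controls and 10042 and 8821 in *Eef1g*-cKO (4 of 12 rose and none fell). The 11 spermatogonial markers summed to 1542 and 1812 in the controls and 293 and 271 in *Eef1g*-cKO (6 of 11 fell). Pachytene markers (5 of 9 with values) summed to 427 and 326 against 1496 and 1392, with 1 higher. That gene, *Hist1h1t*, carried nearly all of the sum, at 388 and 301 FPKM in the controls and 1458 and 1354 in *Eef1g*-cKO. By staining in adult *Eef1g*-cKO mice, the paper detected neither its protein H1T in spermatocytes nor pachytene cells. Of the 5 pachytene markers, 3 had a negative log2 fold change. Sertoli cell markers (12 of 14 with values) summed to 709 and 177 in the controls and 162 and 115 in *Eef1g*-cKO, with *Gata4* at 0 in both *Eef1g*-cKO libraries and 0 of 12 called. The Sertoli sum of control replicate 1 thus stood apart from those of the other libraries. Peritubular markers (8 of 10) summed to 95.3 and 94.3 FPKM in the controls and 58.2 and 34.4 in *Eef1g*-cKO, and the 4 Leydig markers with values to at most 10.5 in any library. Only *Cd14* and *Cd74* of 14 macrophage markers had values, with sums between 0 and 4.11 FPKM. Single genes weighed heavily in 2 of these sums. *Tex101* was at 1835 and 2291 FPKM in the controls and 6072 and 5281 in *Eef1g*-cKO, and *Uchl1* at 1011 and 1138 against 140 and 120. By immunostaining, the paper found comparable shares of leptotene and zygotene cells in the sorted control and *Eef1g*-cKO samples. Whether cell makeup differed between these libraries, or contributes to the values below, was not tested. In such bulk libraries, fewer cells of a type and fewer RPFs per cell cannot be told apart.

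Together the 49 genes took 4215 and 4712 reads per 1e6 counted reads in the controls and 5333 and 4914 in *Eef1g*-cKO. Each *Eef1g*-cKO library exceeded each control library, but by a log2 ratio of only 0.20, and an exact permutation test of 2 against 2 libraries cannot give a two-sided p below 0.333. Within that total the sums of some roles differed between the groups. The V-ATPase genes summed to 990 and 1063 reads per 1e6 in the controls and 1510 and 1461 in *Eef1g*-cKO, and the LAMPs to 360 and 462 against 849 and 846. The 5 ATG8 genes went the other way, from 211 and 215 reads per 1e6 in the controls to 98.3 and 132 in *Eef1g*-cKO. Single genes weighed heavily in these sums. Of the 15 V-ATPase genes, 8 had a positive and 7 a negative log2 fold change (median 0.17). In *Eef1g*-cKO, *Atp6v1h* (87 and 188), *Atp6v1d* (66 and 104) and *Atp6v0b* (28 and 64) held most of their 338 and 596 reads. *Lamp1* held 116 and 249 of the LAMPs' 190 and 345 reads there, and *Gabarap* 12 and 29 of the 22 and 54 ATG8 reads.

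Among the members, the cathepsins L and D were the most abundant. Reads per kilobase of coding sequence and per 1e6 reads compare genes better than FPKM here, since RPFs lie in coding sequence and the FPKM divides by the longer gene length. On that scale *Ctsl*, a cysteine protease, ranked first over the 4 libraries, at 538 and 379 in the controls and 611 and 533 in *Eef1g*-cKO. *Ctsd*, an aspartic protease, followed at 423 and 611 in the controls and 479 and 436 in *Eef1g*-cKO. Their ranges overlapped, so the order of the pair is not settled. *Lamp1* came next, with *Gabarap*, *Atp6v1d*, *Atp6v1h* and *Sqstm1* behind it. The order of these 5 genes differed between the groups, as *Gabarap* led them in the controls (358 and 323) and *Lamp1* in *Eef1g*-cKO (425 and 501).

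**Figure D1:**
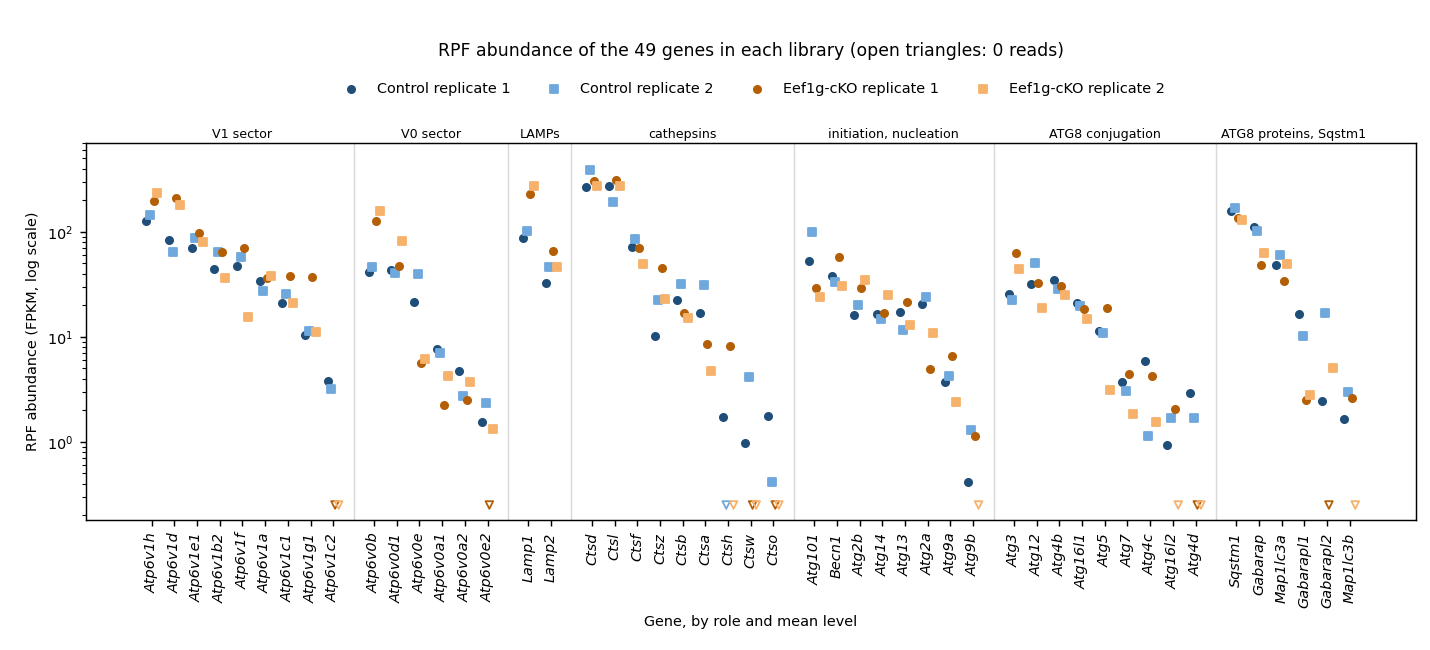
RPF abundance (FPKM, log axis) of the 49 genes in each of the 4 libraries, ordered by role and mean level, with open triangles at the bottom for libraries with 0 reads. The *Eef1g*-cKO points of *Lamp1*, *Atp6v0b* and *Atp6v1d* lie above both control points, and those of *Atp6v0e*, *Gabarapl1* and *Gabarap* below both.

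In limma's test over the 10475 genes that averaged 1 FPKM or more (called where the log2 fold change was beyond 1 in size and the adjusted p under 0.05), 3 of the 47 tested members rose in *Eef1g*-cKO, *Atp6v0b*, *Atp6v1d* and *Lamp1*, and 1 fell, *Atp6v0e*. Of all genes tested, 2.87% rose and 4.97% fell, 7.85% together. The members' median log2 fold change was −0.19, against −0.23 over all genes. Of the members 19 were positive and 28 negative, beside 4284 positive and 6191 negative of all genes tested. The *Eef1g*-cKO pair was above the control pair for 11 members and below it for 15, where the shares over all genes were 24.6% and 37.7%. By unadjusted p, 4 members were higher and 8 lower, beside 7.32% and 16.3% of all genes. Among those lower, *Atp6v1c2*, *Atg4d* and *Ctsw* had 0 reads in both *Eef1g*-cKO libraries. They passed the filter on level through the deeper control libraries alone, so they could only come out lower or untested. The same holds for their part in the negative and below counts. The edgeR quasi-likelihood test on whole reads recovered from the authors' normalized counts called 4 of 39 tested members higher (the same 3 and *Atg3*) and 4 lower (*Gabarapl1*, *Atg2a*, *Atg101* and *Ctsa*), beside 8.75% and 11.2% (20% together) of the 8056 genes it tested. Counts of 1 to 4 genes are too small to set the group apart from those shares. No limma call among the members held when either control library was left out (0 higher and 0 lower each time), while 7 were called higher without *Eef1g*-cKO replicate 2 and 6 lower without either *Eef1g*-cKO library. The calls were also lost with a pseudocount of 0.1 FPKM, an untrended prior or reads thinned to equal totals, while all 4 log2 fold changes kept their direction. The edgeR calls of higher members numbered 4 whichever library was left out, but those of lower members dropped to 1 without either *Eef1g*-cKO library.

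**Figure D2:**
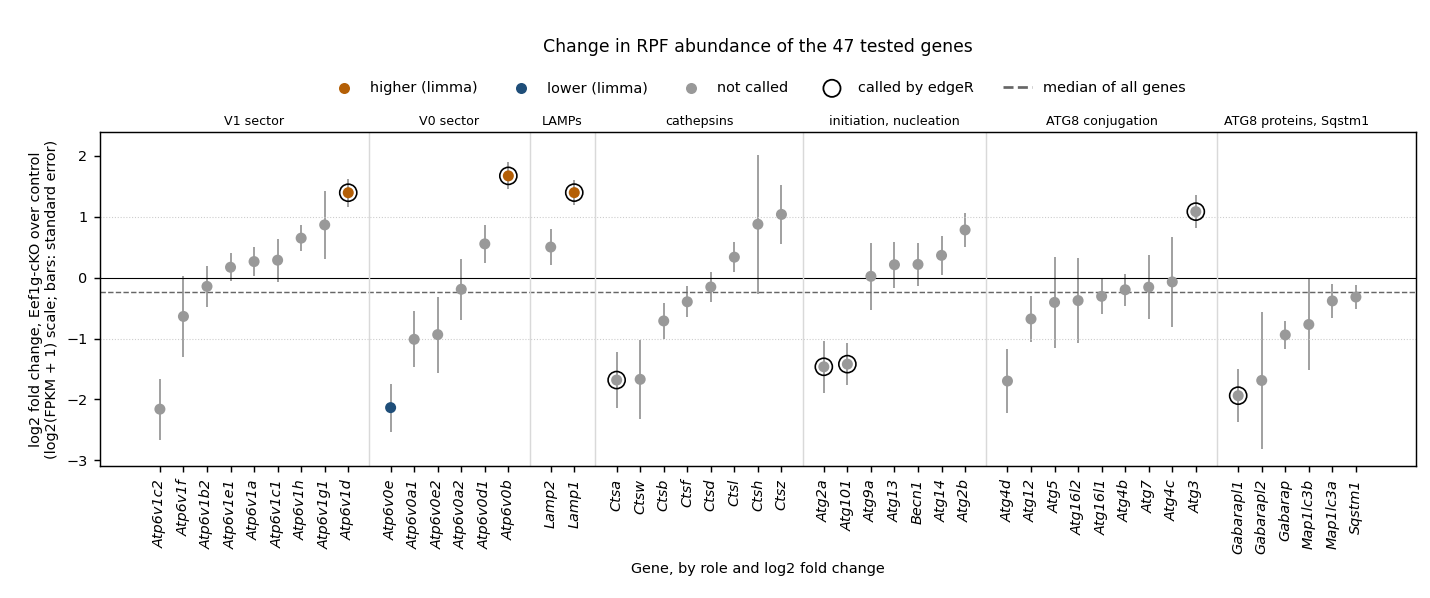
Log2 fold change of *Eef1g*-cKO over control (log2(FPKM + 1) scale) for the 47 tested genes by role, with bars for the standard error, colour for limma calls and rings for edgeR calls. Rings without colour mark genes called by edgeR alone, and the dashed line is the median of all genes, −0.23.

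Among the 9 V1 genes, 1 rose and none fell, with a median log2 fold change of 0.26. *Atp6v1d* (chr12:78842982-78862008, GRCm38.p6 build, as are all positions here) encodes subunit D of the central shaft that turns inside the V1 head. Its RPF abundance was 83.8 and 64.0 FPKM in the controls and 209 and 181 in *Eef1g*-cKO. The groups were far apart, at means of 73.9 ± 14.0 and 195 ± 19.99 (SD, n = 2), and the log2 fold change was 1.40 (SE 0.23, limma adjusted p = 0.0347). *Atp6v1h* encodes the regulatory subunit H and had the highest FPKM of the sector, at 127 and 146 in the controls and 197 and 233 in *Eef1g*-cKO. Both *Eef1g*-cKO libraries were above both controls, but the log2 fold change of 0.65 (SE 0.21, limma adjusted p = 0.103) did not pass, and with edgeR it was 0.74 (adjusted p = 0.0179), under the fold required. *Atp6v1a*, the catalytic subunit, had a log2 fold change of 0.26 and *Atp6v1b2*, its non-catalytic partner in the head, of −0.14. The peripheral stalk genes *Atp6v1e1* and *Atp6v1g1* were at 0.17 and 0.87, the second with *Eef1g*-cKO values of 36.8 and 11.2 FPKM that rest on 9 and 5 reads. *Atp6v1f*, which sits beside subunit D on the shaft, had 70.3 FPKM in one *Eef1g*-cKO library and 15.4 in the other, on either side of the controls (47 and 58.0). Of the C subunits, *Atp6v1c1* made up 84.7% and 88.9% of the summed FPKM in the controls and 100% in both *Eef1g*-cKO libraries. *Atp6v1c2* had 15 and 7 reads in the controls and 0 in *Eef1g*-cKO. Its log2 fold change of −2.16 (SE 0.50, limma adjusted p = 0.0560) was the most negative among the members and was not called. At this depth its loss was not detectable, as 3 reads in each *Eef1g*-cKO library would give a mean of 6.497 FPKM, above the control mean of 3.48.

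Among the 6 V0 genes, 1 rose and 1 fell, with a median log2 fold change of −0.56. *Atp6v0b* (chr4:117884330-117887333) encodes a proteolipid of the proton-carrying ring. It was at 41.3 and 45.7 FPKM in the controls and 126 and 158 in *Eef1g*-cKO. This was the largest increase among the members in limma's fit, with means of 43.5 ± 3.11 and 142 ± 22.6 (SD, n = 2) and a log2 fold change of 1.67 (SE 0.22, limma adjusted p = 0.0289). *Atp6v0e* (chr17:26676396-26699647) encodes a small membrane subunit of V0. It was at 21.3 and 39.9 FPKM in the controls and 5.61 and 6.16 in *Eef1g*-cKO, a log2 fold change of −2.13 (SE 0.40, limma adjusted p = 0.0389). The *Eef1g*-cKO values stand for only 1 and 2 reads, against 42 and 44 in the controls. On pooled reads the control level was 4.69 times that of *Eef1g*-cKO, with an exact 95% interval for counting error of 1.55 to 23.2, and edgeR did not call the gene (adjusted p = 0.0518). *Atp6v0d1*, whose subunit joins the shaft to the ring, had 43.6 and 40.2 FPKM in the controls and 46.95 and 81.9 in *Eef1g*-cKO (log2 fold change 0.56, SE 0.31). The a subunits, which form the proton path, were low, and *Atp6v0a1* took 61.6% and 72.1% of their summed FPKM in the controls and 46.9% and 53.7% in *Eef1g*-cKO, where each of them had 2 to 8 reads in a library.

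Of the 2 LAMP genes, 1 rose and none fell. *Lamp1* (chr8:13159161-13175338) was at 86.6 and 102 FPKM in the controls and 230 and 271 in *Eef1g*-cKO, on 484, 319, 116 and 249 reads. It was the best covered of the genes called, with means of 94.4 ± 11.1 and 250 ± 28.9 (SD, n = 2) and a log2 fold change of 1.40 (SE 0.21, limma adjusted p = 0.0308). *Lamp2*, its relative and the receptor of chaperone-mediated autophagy, was at 32.6 and 45.7 FPKM in the controls and 65.3 and 46.5 in *Eef1g*-cKO. Its *Eef1g*-cKO values were the higher ones, the second by less than 1 FPKM, and the log2 fold change was 0.50 (SE 0.29, limma adjusted p = 0.288). The *Lamp1* to *Lamp2* ratio within a library was 1.21 and 1.02 in the controls and 1.61 and 2.66 in *Eef1g*-cKO per kilobase of coding sequence, and 2.66 and 2.24 against 3.52 and 5.82 by FPKM.

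None of the 8 tested cathepsins was called by limma, and their median log2 fold change was −0.27. *Ctsd* was at 266 and 384 FPKM in the controls and 302 and 275 in *Eef1g*-cKO (log2 fold change −0.15, SE 0.25). *Ctsl* was at 274 and 192 FPKM in the controls and 310 and 271 in *Eef1g*-cKO (0.34, SE 0.25). For both genes the *Eef1g*-cKO values overlapped the controls, and the direction of *Ctsd* turned when each library was centred on its median (0.06). *Ctsa* encodes protective protein, a serine carboxypeptidase that also stabilises other lysosomal enzymes. It was at 16.7 and 31.1 FPKM in the controls and 8.62 and 4.73 in *Eef1g*-cKO, on 7 reads in each of the latter. Its log2 fold change was −1.68 (SE 0.45, limma adjusted p = 0.0733) and passed in edgeR alone (−1.83, adjusted p = 0.00723). *Ctsb*, a cysteine protease, lay lower in both *Eef1g*-cKO libraries (16.9 and 15.0 FPKM) than in both controls (22.6 and 31.5), with a log2 fold change of −0.71 (limma adjusted p = 0.173). *Ctsz*, at 10.1 and 22.3 FPKM in the controls and 44.9 and 22.9 in *Eef1g*-cKO, had a log2 fold change of 1.04 (limma adjusted p = 0.211). *Ctsh*, *Ctso* and *Ctsw* had 0 to 3 reads in each *Eef1g*-cKO library. Cathepsin L is also a product of Sertoli cells, whose markers were highest in control replicate 1, and *Ctsl* was at 274 FPKM in that library and at 192 in control replicate 2. The part of Sertoli cells in these values was not tested.

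None of the 7 tested genes of autophagy initiation and nucleation was called by limma, and edgeR called 2 lower. *Atg101* encodes a partner of ATG13 in the ULK kinase complex that starts autophagy. It was at 52.5 and 99.3 FPKM in the controls and 29.0 and 23.9 in *Eef1g*-cKO, the latter on 8 and 12 reads. The groups did not overlap (log2 fold change −1.42, SE 0.35, limma adjusted p = 0.0621, edgeR adjusted p = 0.0154). *Atg13* itself overlapped between groups, at 17.3 and 11.7 FPKM against 21.2 and 13.0. *Atg2a* and *Atg2b* encode lipid transfer proteins that feed the growing membrane. *Atg2a* was at 20.3 and 24.0 FPKM in the controls and 4.93 and 10.8 in *Eef1g*-cKO (log2 fold change −1.46, SE 0.43, limma adjusted p = 0.0850, edgeR adjusted p = 0.00752). Its *Eef1g*-cKO values rest on 7 and 28 reads. *Atg2b*, which was chosen after its values were seen, was at 16.1 and 19.95 FPKM in the controls and 29.0 and 34.5 in *Eef1g*-cKO (0.78, SE 0.27, limma adjusted p = 0.1201). Per kilobase of coding sequence, *Atg2b* exceeded *Atg2a* in every library, at a ratio of 1.17 and 1.23 in the controls and 8.70 and 4.71 in *Eef1g*-cKO. By FPKM, which divides by gene length, the ratio was 0.793 and 0.830 in the controls and 5.88 and 3.18 in *Eef1g*-cKO. *Becn1*, a subunit of the lipid kinase complex that marks the site of membrane growth, was at 37.9 and 33.4 FPKM in the controls and 57.2 and 30.2 in *Eef1g*-cKO. Its values overlapped, with a log2 fold change of 0.22 (SE 0.35) that turned to −0.23 without *Eef1g*-cKO replicate 1.

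**Figure D3:**
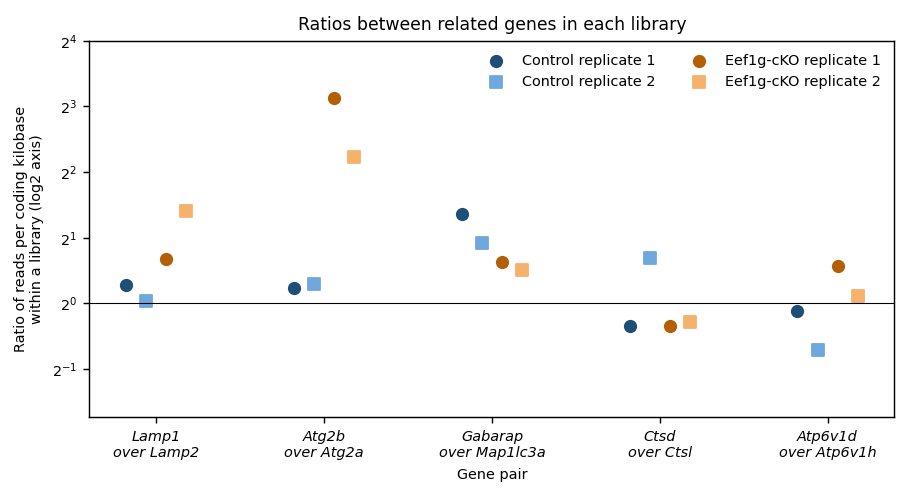
Ratio of reads per coding kilobase between related genes within each library (log2 axis; 1 point for each library, the line marks a ratio of 1). The *Atg2b* to *Atg2a* ratio is 1.17 and 1.23 in the controls and 8.70 and 4.71 in *Eef1g*-cKO, where *Atg2a* had 7 and 28 reads. The *Ctsd* to *Ctsl* ratio overlaps between the groups.

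Of the 9 genes that attach ATG8 proteins to lipid, none was called by limma, and 8 had a negative log2 fold change (median −0.31), 3 of them (*Atg4b*, *Atg7* and *Atg4c*) above the median of all genes. Over all genes tested, 6191 of 10475 were negative. The exception was *Atg3*, the E2-like enzyme that transfers ATG8 to the lipid. It was at 25.6 and 22.6 FPKM in the controls and 62.1 and 43.8 in *Eef1g*-cKO, with a log2 fold change of 1.08 (SE 0.27, limma adjusted p = 0.0633) that edgeR called (1.17, adjusted p = 0.0138). The enzymes and scaffolds around it did not show such a step. *Atg7*, the E1-like enzyme before ATG3, was at 3.70 and 3.05 FPKM in the controls and 4.43 and 1.82 in *Eef1g*-cKO. *Atg12*, whose protein joins ATG5 to guide ATG3, was at 31.6 and 50.4 FPKM in the controls and 32.3 and 18.7 in *Eef1g*-cKO (log2 fold change −0.68, SE 0.37). *Atg16l1*, which holds that conjugate at the membrane, had values of 21.2 and 19.8 FPKM in the controls and 18.3 and 14.6 in *Eef1g*-cKO (−0.31). Of the proteases that trim ATG8, *Atg4b* was at −0.20, and *Atg4d* had 22 and 7 reads in the controls and 0 in *Eef1g*-cKO, which is not a detectable loss at this depth.

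All 5 ATG8 genes and *Sqstm1* had a negative log2 fold change, with a median of −0.85, though *Map1lc3a* and *Sqstm1* turned positive once a trend on GC content was removed. A negative value was common, with 6191 of the 10475 genes tested. *Gabarapl1*, *Gabarapl2* and *Map1lc3b* had at most 2 reads in each *Eef1g*-cKO library, so the shared direction and the median lean partly on few reads. None was called by limma, and edgeR called 1 lower. *Gabarap*, the most abundant ATG8 gene, was at 112 and 101 FPKM in the controls and 47.8 and 63.4 in *Eef1g*-cKO. The groups were well apart, yet the log2 fold change of −0.94 (SE 0.23, limma adjusted p = 0.0623, edgeR adjusted p = 0.0532) did not pass. *Gabarapl1* was at 16.4 and 10.2 FPKM in the controls and 2.52 and 2.76 in *Eef1g*-cKO (log2 fold change −1.94, SE 0.43, limma adjusted p = 0.0523, edgeR adjusted p = 0.0477). The latter values rest on 1 and 2 reads, and the pooled control level was 5.29 times that of *Eef1g*-cKO, with an exact 95% interval for counting error of 1.76 to 26.1. *Map1lc3a*, the main LC3 gene here, was at 48.6 and 59.5 FPKM in the controls and 34.2 and 49.3 in *Eef1g*-cKO, with overlapping values (−0.38, SE 0.27). *Gabarapl2* had 6 and 23 reads in the controls and 0 and 2 in *Eef1g*-cKO, and *Map1lc3b* had 7 and 7 against 1 and 0, too few to place. Of the summed FPKM of the ATG8 genes, *Gabarap* took 61.9% and 53.0% in the controls and 54.9% and 52.6% in *Eef1g*-cKO, and *Map1lc3a* 26.8% and 31.2% against 39.3% and 40.9%. *Sqstm1*, the receptor that carries ubiquitin-tagged cargo to ATG8 and is itself degraded with it, stayed close between groups, at 158 and 169 FPKM in the controls and 134 and 128 in *Eef1g*-cKO (−0.32, SE 0.19, limma adjusted p = 0.304).

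Depth limited the low end of the group. In 13 of the 49 genes, both *Eef1g*-cKO libraries held at most 3 reads, beside 3792 of all 11598 genes. The 13 include *Atp6v0e* and *Gabarapl1* among the genes described above. For a gene of 1 kb, 3 reads stand for 13.4 and 7.35 FPKM in the *Eef1g*-cKO libraries and 1.21 and 2.17 in the controls.

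Coding GC content ran along with the changes. Over the 47 members, Spearman's rho between the GC content of the coding sequence and the log2 fold change was −0.29, the same as over 9783 tested genes (−0.29). Over the 36 members with a mean of at least 5 FPKM it was −0.16. These are descriptions across genes that share the same 4 libraries. With each library's trend on GC removed, *Atp6v0b* (log2 fold change 2.02), *Lamp1* (1.56), *Atp6v1d* (1.27) and *Atp6v0e* (−2.08) remained called. *Atg101* moved to −0.85, *Atg2a* to −0.81, *Ctsa* to −1.25 and *Atg3* to 0.86, and the members' median moved to 0.11. The signs of *Map1lc3a* (0.18), *Sqstm1* (0.27) and *Ctsd* (0.18) turned, so the common negative direction of the ATG8 genes and *Sqstm1* does not hold on that scale.

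**Figure D4:**
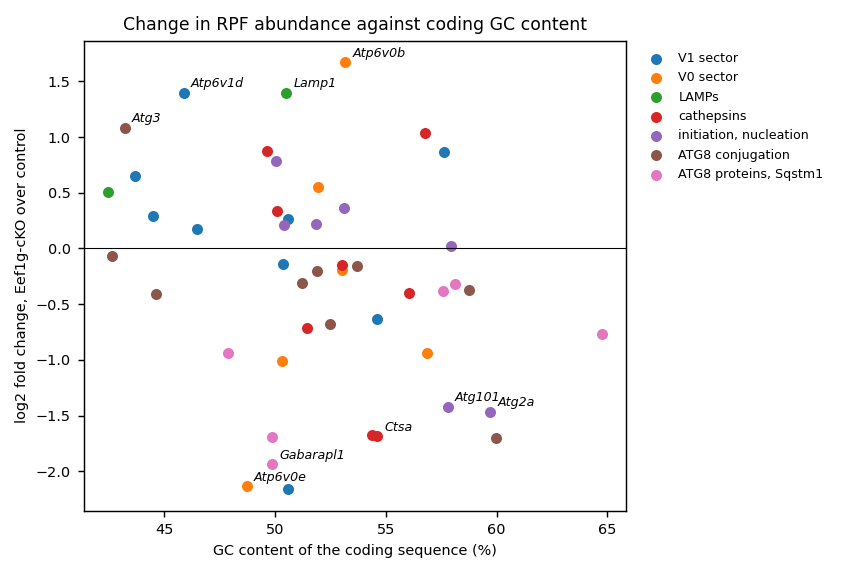
Log2 fold change of *Eef1g*-cKO over control against the GC content of the coding sequence (percent) for the 47 tested genes, coloured by role, with the genes called by limma or edgeR named. The cloud slopes down (Spearman's rho −0.29), and *Atp6v0b* lies above it and *Atp6v0e* and *Gabarapl1* below it at middle GC content.

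Promoter sequence was another feature that the choice of genes had not used. Many lysosomal genes carry near their start the E-box core CACGTG, a sequence that the MiT/TFE transcription factors can bind. These factors drive lysosome formation, but the core is not particular to lysosomal genes. RefSeq promoter windows of the GRCm38.p6 build, from 250 bases before to 50 after an annotated start, were found for 37 of the 49 genes (39 windows). CACGTG, which reads alike on both strands, occurred in 33.3% of these windows, against 10.9% of the windows of all genes tested and 7.15% of all 32851 windows. Its extended form TCACGTGA, also the same on both strands and containing the core, was in 15.4% of the members' windows, 1.99% of those of genes tested and 0.974% of all. TGATGCAA (TTGCATCA on the other strand), a sequence of the kind that ATF4 binds, was in 0 of the members' 39 windows. It was in 0.557% of the windows of genes tested and 0.895% of all. At so low a share, 0 of 39 windows was likely in any case, so this count does not set the members apart.

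Printed here are the stretches around the E-box cores of the genes that limma or edgeR called and that hold one. The stretches read 5′ to 3′ along the strand of the gene, with each core in capitals. They run from chr8:13159090-13159160 (plus strand) for *Lamp1*, chr4:117887332-117887375 (minus) for *Atp6v0b*, chr16:45158725-45158773 (plus) for *Atg3*, chr2:164833751-164833776 (plus) for *Ctsa* and chr17:26676389-26676414 (plus) for *Atp6v0e*.
Lamp1: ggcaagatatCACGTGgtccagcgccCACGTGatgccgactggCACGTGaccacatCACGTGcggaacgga
Atp6v0b: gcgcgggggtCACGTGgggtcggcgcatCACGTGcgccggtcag
Atg3: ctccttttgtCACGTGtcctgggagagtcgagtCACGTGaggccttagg
Ctsa: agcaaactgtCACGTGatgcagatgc
Atp6v0e: gcgcgccgatCACGTGagcctctgtt
*Lamp1* held 4 cores within the 71 bases before its start, the most of any member. *Atp6v0b* and *Atg3* held 2 each, and the second core of *Atg3* is part of the extended form. The cores of *Ctsa* and *Atp6v0e* are also of the extended form and lie within 12 bases of the annotated start, and *Ctsa* holds a second one 5 bases after it.

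The motif was found in genes that moved in either direction. Of the 13 tested members with a core, 7 had a positive log2 fold change, with a median of 0.26 and a range from −2.13 (*Atp6v0e*) to 1.67 (*Atp6v0b*). Of the 22 tested members with a window and no core, 7 were positive, with a median of −0.51. *Atp6v1d*, which rose, had a window without a core. The extended form was also present in *Ctsd*, *Atp6v0d1* and *Atp6v1a*, none of which was called. At *Ctsd* it lies 98 bases before the start, at *Atp6v0d1* 3 and at *Atp6v1a* 131:
Ctsd: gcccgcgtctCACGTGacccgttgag
Atp6v0d1: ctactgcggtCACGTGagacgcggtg
Atp6v1a: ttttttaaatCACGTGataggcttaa
These lie at chr7:142387910-142387935 for *Ctsd*, chr8:105566052-105566077 for *Atp6v0d1* and chr16:44139375-44139400 for *Atp6v1a*, all on the minus strand. A match describes the letters of the window and does not show that a factor binds there. The changes set beside the motif are in RPF abundance, and transcription was not measured by these libraries.

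**Figure D5:**
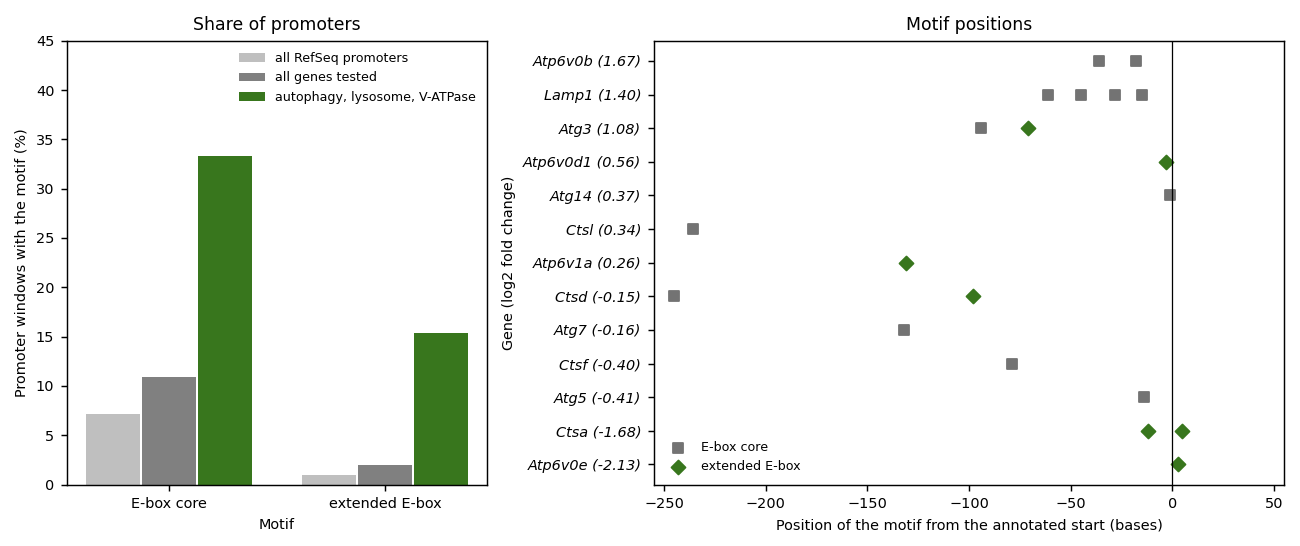
Left, share of promoter windows (percent) holding the E-box core or its extended form in all RefSeq promoters, in genes tested and in the autophagy, lysosome and V-ATPase genes (33.3% and 15.4%). Right, position of each motif in bases from the annotated start for the 13 genes that hold one, ordered by log2 fold change, which is given in parentheses.

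Other genes of the same pathways were counted for comparison. Of 129 with values, 122 were tested by limma, with a median log2 fold change of −0.15. Among these, 3 rose and 4 fell, beside 2.87% and 4.97% of all genes tested. Those that rose were *Gnptg* (2.28), *Hexa* (1.85) and *Vmp1* (1.59). *Gnptg* encodes a subunit of the phosphotransferase that tags hydrolases for the lysosome, *Hexa* a lysosomal hexosaminidase subunit and *Vmp1* a membrane protein needed for autophagosome formation. *Gnptg* was at 81.7 and 80.8 FPKM in the controls and 362 and 441 in *Eef1g*-cKO. Those that fell were *Lamtor4* (−2.18), *Pik3c3* (−2.02), *Lgmn* (−1.27) and *Calcoco1* (−1.27). *Pik3c3* encodes the catalytic subunit of the lipid kinase complex that contains *Becn1*, and was at 37.1 and 36.3 FPKM in the controls and 5.76 and 11.9 in *Eef1g*-cKO. *Lamtor4* belongs to the Ragulator complex that anchors mTORC1 to the lysosome, *Lgmn* is a lysosomal protease that processes cathepsins, and *Calcoco1* an autophagy receptor. By list, 1 of 31 hydrolases and cofactors rose and 1 fell, and none of the 19 other lysosomal membrane proteins was called in either direction. Of 18 genes that act with mTORC1 at the lysosome or encode MiT/TFE factors, *Lamtor4* alone fell (median −0.36), and of 14 cargo receptors *Calcoco1* alone (median −0.43). The 9 tested genes of V-ATPase assembly and regulation had no call and a median of 0.39. None of the 7 calls held when a control library was left out, whichever it was, and without *Eef1g*-cKO replicate 1 or replicate 2 the number lower was 13 or 10. The edgeR test called 9 of 96 higher and 9 lower, beside 8.75% and 11.2% of all genes it tested. Neither test's counts set these pathway genes apart from all genes.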

How the data were processed

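Ribo-seq of sorted leptotene and zygotene spermatocytes gave 4 libraries, 2 control and 2 *Eef1g*-cKO, grouped by the labels. The authors deposited FPKM values and, as a read signal, per-gene counts that they had scaled by library size factors, for 11598 genes. The submitters' processing notes name cutadapt, Bowtie and STAR and the builds mm10 and hg38, without their roles, and the counting tool is not given in the sources used here. The steps of that signal gave whole reads for 100% of values (tolerance 0.001), and every gene held at least 10 reads over the 4 libraries. 6 deposited columns with the authors' own comparison were not used.

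The log2(FPKM + 1) values were compared with limma 3.58.1 (lmFit and eBayes with a trended prior, R 4.3.3) over genes that averaged 1 FPKM or more. P-values were adjusted by the Benjamini-Hochberg method over all of them, and a gene was called where its log2 fold change was beyond 1 in size and its adjusted p under 0.05. Fold changes on this scale understate those of low genes. The recovered reads were also tested with edgeR 4.0.16 (quasi-likelihood) and DESeq2 1.42.0. Totals of 223906 to 2479504 reads set the precision, and intervals and floors (3 reads) cover counting error only. Coding GC content came from the GENCODE M21 transcript with the most coding bases, and its trend was removed by lowess with a span of 0.3. Gene lists and members were chosen with earlier results of these data known. Named genes were those called by limma or edgeR, the 2 most abundant and, among those with a mean of at least 5 FPKM, the most changed of each role, and 9 fixed autophagy and LAMP genes; of the other pathway genes, those called. Members named beside these (such as *Atp6v1f*, *Atg2b*, *Atg13*, *Atg7*, *Ctsb* and *Ctsz*) fall outside this rule and were chosen after their values were seen. Promoters and coordinates came from RefSeq, GRCm38.p6, matched by symbol for 49 of 49 genes. Scripts were tested on simulated data. The alternatives were another prior, filter, pseudocount, scaling or count model, reads thinned to 222777 per library, a replicate block, leaving out each library, and, chosen after seeing the data, the GC correction and edgeR without each library.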

Additional observations from a re-analysis of the deposited data

How the results depend on the processing

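Under 19 alternatives, the higher calls of *Lamp1*, *Atp6v0b* and *Atp6v1d* each held in 14 and the lower call of *Atp6v0e* in 10, and none of these 4 genes turned. With an untrended prior, a pseudocount of 0.1 FPKM or reads thinned to equal totals, 0 members were called higher and 0 lower, and among the other pathway genes 0, 1 and 0 were called higher and 0, 0 and 0 lower. Members called higher (3) ranged from 0 to 7 when a library was left out, and members called lower (1) from 0 to 6, with the lone sample of a group assumed to vary like the others. Members called lower numbered 4 with edgeR, 4 with edgeR and a replicate block, 3 with edgeR without a filter, 2 with DESeq2, 2 with a robust prior, 3 when genes under a mean of 5 FPKM were dropped and 3 with a pseudocount of 5 FPKM. Members called lower by edgeR (4) ranged from 1 to 5 when a library was left out. Other pathway genes called higher (3) numbered 6 with DESeq2, 13 with the GC trend removed, 9 with each of the 3 edgeR fits, 6 with median centring and 0 to 5 with a library left out. Those called lower (4) numbered 2 with the GC trend removed, 9 with each of the 3 edgeR fits and 0 to 13 with a library left out. The deviations of same-numbered libraries from their group means were not correlated (−0.01). With 2 libraries a group, the crossed value (0.01) is the negative of this by construction and adds nothing. Whether the animals were paired cannot be told from it. With the replicate block in limma, 4 members were called higher and 3 lower, and 3 and 7 of the other pathway genes. The members' median of −0.19 ranged from −0.35 to 0.16 when a library was left out, and median centring moved the median of all genes from −0.23 to −0.019. Directions turned for *Becn1* (from −0.23 to 0.67 with a library left out), *Ctsd* (0.18 with the GC trend removed, 0.061 with median centring, −0.42 to 0.11 with a library left out), *Map1lc3a* (0.18) and *Sqstm1* (0.27) with the GC trend removed, and *Map1lc3b* (−1.69 to 0.16 with a library left out). The causes were not tested. The depth of the *Eef1g*-cKO libraries limits genes of few reads, and 2 libraries a group limit every test.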
